A study of Bos indicus with 55 samples.

Results

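The endometrium is the lining of the uterus. It was compared between cows carrying a male (XY) conceptus made by nuclear transfer and cows carrying a male conceptus conceived in vivo after artificial insemination. A conceptus is the embryo with its membranes, and in nuclear transfer an egg without its own nucleus receives one from a body cell. The comparison holds 9 of the 27 endometrial libraries in a series of 55 samples, chosen by the conceptus type and sex in the sample titles: 6 under nuclear transfer males and 3 under in vivo males. All 9 cows were at day 16 of pregnancy and each library carries its own animal number. The tissue is labelled intercaruncular, the gland-bearing area between the attachment sites of the later placenta. In vivo male replicate 2 and nuclear transfer male replicate 6 are contralateral, from the uterine horn without the conceptus, and the other 7 ipsilateral. The 3 libraries under male conceptuses made by in vitro fertilisation (IVF) entered the fit to share the estimate of spread. The labels give the cows as Bos indicus, while the series text describes the conceptuses as Bos taurus taurus. The nuclear donor cells and the sires are not described, so the kind of conceptus cannot be told apart from the genotype it carried.

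At this stage of a cattle pregnancy the conceptus elongates, and its trophoblast secretes interferon tau, the signal by which the mother recognises the pregnancy. The endometrium answers with interferon-stimulated genes and feeds the conceptus with gland secretions. Cattle conceptuses made by nuclear transfer are known for frequent losses and abnormal placentas. The series title frames the endometrium as a sensor of the conceptus it carries.

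Library totals of the 9 libraries ran from 5.89 to 9.82 M estimated counts. The highest was in vivo male replicate 1, and the next highest held 7.05 M. Of the 27619 rows, 27607 carry an Ensembl identifier and 12 a symbol, and none of the identifiers matched the table of gene names used here. Genes are therefore given by identifier and their functions are not described. The 30 lists of pathways and cell type markers had 0 members tested, so neither the tissue label nor the share of cell types was checked by markers. The 8 Y-linked symbols of the table, which could mark RNA of a male conceptus, held 2 counts in all over the 9 libraries. In bulk tissue, fewer cells of a type and less RNA per cell cannot be told apart.

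Under nuclear transfer males, 43 genes were lower and 13 were higher than under in vivo males, of 15296 tested (edgeR quasi-likelihood test with Benjamini-Hochberg adjustment, threshold 0.05). This is 0.366% of the genes tested, 0.281% lower and 0.085% higher. Over all genes tested the median log2 difference was 0.00, and 50.5% of the differences lay above 0. At an unadjusted p under 0.05 there were 2422 genes (15.8%), 1341 lower and 1081 higher. Falls outnumbered rises at both thresholds.

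**Figure D1:**
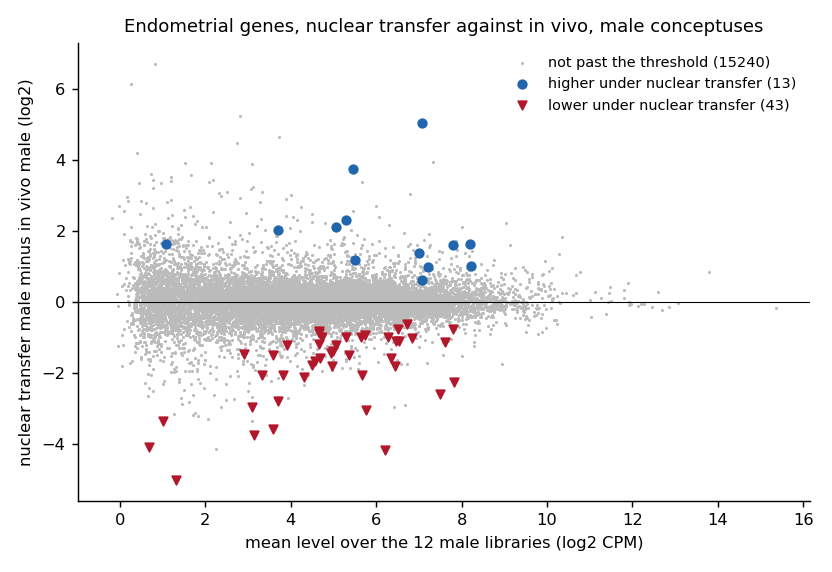
Each point is a gene, placed by its mean level over the 12 male libraries (log2 CPM) and its difference between nuclear transfer and in vivo males (log2). The 43 genes that fell (triangles) and the 13 that rose (filled circles) are spread over a wide range of levels, and the other genes (grey) centre on 0.

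The falls were mostly of moderate size. Their median log2 difference was -1.5, 33 of the 43 were at least 2-fold, 15 at least 4-fold and 7 at least 8-fold. In the in vivo libraries the group means of the 43 ran from 4.35 to 533 CPM (counts per M counted), with 15 genes at 100 CPM or more and 3 under 10. Of the 7 largest falls, 3 were at so low a level that they were not tested under female conceptuses, and the fitted fold of such genes depends on the small count the fit adds. The median of the 43 group means was 58.0 CPM under in vivo and 20.2 CPM under nuclear transfer males. Summed over the 43 genes, the in vivo male libraries held 3276 to 6272 CPM and the nuclear transfer male libraries 1459 to 1763.

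Among the 13 rises the median log2 difference was 1.62, and 11 were at least 2-fold, 5 at least 4-fold and 2 at least 8-fold. Their group means under nuclear transfer ran from 2.38 to 363 CPM, with 7 at 100 CPM or more and 1 under 10. The median of the 13 group means was 22.8 CPM under in vivo and 153 CPM under nuclear transfer males. Their sum was 587 to 779.7 CPM in the in vivo male libraries and 1504 to 2299.8 CPM in the nuclear transfer male libraries. Fractional counts can arise where a counter divides a read among several features. They occurred for 6 of the 43 falling and 5 of the 13 rising genes in at least 1 of the 9 libraries, against 32.3% of all genes tested.

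For each of the 56 genes, all 6 nuclear transfer libraries lay on one side of all 3 in vivo libraries. Over all genes tested, 6.07% were separated in this way, 3.28% with nuclear transfer lower and 2.79% with it higher. The separation of the 56 follows in part from their choice by the test and is given as a description.

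ENSBTAG00000021416 had the smallest p of the falls. In the in vivo male libraries it stood at 599, 363 and 507 CPM. The 6 nuclear transfer male libraries ran from 43.4 to 122 CPM, with a median of 79.0. The groups did not overlap, and the lowest in vivo library, from the contralateral horn, was above every nuclear transfer library. The level went from 490 ± 119 CPM (SD, n = 3) to 80.4 ± 25.0 (n = 6), a 6.08-fold fall. Its log2 difference of -2.60 (SE 0.26) had an adjusted p of 0.00305 by edgeR.

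ENSBTAG00000021752 was the next fall. It stood at 91.0, 71.6 and 76.3 CPM in the in vivo male libraries. Its 6 nuclear transfer values were close together, from 38.9 to 41.9 CPM with a median of 40.5. The gap between the groups was far wider than the spread within nuclear transfer. The level went from 79.6 ± 10.1 CPM (n = 3) to 40.4 ± 1.13 (n = 6), a fall of 1.97-fold (log2 difference -0.98, SE 0.11, adjusted p = 0.00970 by edgeR).

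ENSBTAG00000014218 had the smallest p of the rises. The in vivo male libraries held 3.56, 7.73 and 4.56 CPM, from counts of 31 to 53. The nuclear transfer male libraries ran from 82.2 to 314 CPM with a median of 148. All 6 were above the in vivo libraries, although they differed among themselves by several fold. The level went from 5.28 ± 2.17 CPM (SD, n = 3) to 173 ± 88.4 (n = 6). On the log2 scale it rose by 5.05 (SE 0.71), with an adjusted p of 0.0211 by edgeR. The call was lost without in vivo male replicate 1 (log2 difference 4.81, adjusted p = 0.138) and without in vivo male replicate 3 (4.96, adjusted p = 0.0615).

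ENSBTAG00000012120 was the next rise. It stood at 128, 122 and 93.2 CPM in the in vivo male libraries and from 244 to 454 CPM in the nuclear transfer male libraries, with a median of 353. The groups did not overlap. The level went from 114 ± 18.5 CPM (n = 3) to 351 ± 77.1 (n = 6), with a log2 difference of 1.62 (SE 0.25, adjusted p = 0.0237 by edgeR). The call was lost without in vivo male replicate 1 (adjusted p = 0.138) or 3 (0.0765) and without nuclear transfer male replicate 3 (0.0630) or 5 (0.0685). The 2 falls above kept their calls in all 12 fits with 1 library left out.

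**Figure D2:**
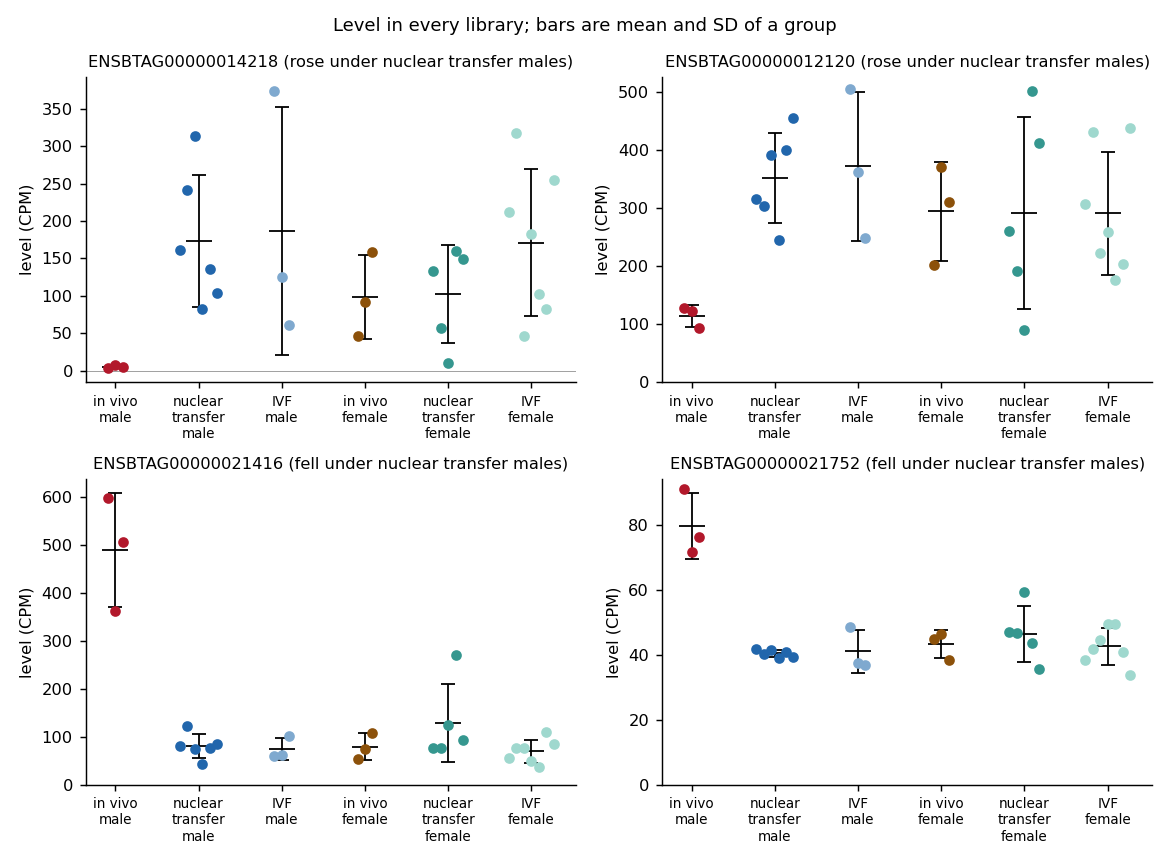
Level of the 4 genes in CPM in every library, by conceptus type and sex, with the mean and SD of each group. The in vivo male libraries stand apart from the nuclear transfer males in all 4 panels, and the other 4 groups lie mostly within or near the range of the nuclear transfer males.

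TBL1X encodes a subunit of the corepressor complexes of nuclear hormone receptors and was the 1 symbol that could be tested. It averaged 23.7 ± 0.845 CPM in the 3 in vivo male libraries and 22.6 ± 5.05 CPM (SD) in the 6 nuclear transfer male libraries. The groups overlapped, at a log2 difference of -0.06 (SE 0.17) and an adjusted p of 0.893 by edgeR.

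The 2 groups were also compared library by library. For each library the level of each called gene was taken as log2 CPM minus that gene's mean over all 27 libraries, and the median over genes was used. Over the 43 falling genes this median was 1.72, 0.78 and 1.18 in in vivo males 1, 2 and 3. It ran from -0.32 to -0.02 under nuclear transfer males. Over the 13 rising genes it was -1.43, -0.99 and -1.25 in the in vivo males, and from 0.04 to 0.56 under nuclear transfer males. In vivo male 1 was thus the most extreme of the 3 in both sets, and the contralateral in vivo male 2 the least. A principal component analysis places libraries along the axes of largest variance. On its first axis (30.4%) in vivo male 1 lay farthest out, at -82.1. In vivo males 2 and 3 were at 3.7 and -20.7, and nuclear transfer males ran from -8.8 to 39.9. Whether the place of in vivo male 1 is particular to the called genes was not tested. Of the 43 falling genes, 33 had their highest in vivo value in replicate 1, 7 in replicate 3 and 3 in replicate 2. Of the 13 rising genes, 10 had their lowest in vivo value in replicate 1, 3 in replicate 3 and 0 in replicate 2. The shares over all genes tested were not computed, and these libraries took part in choosing the genes. The counts are thus not read as a trait of the genes. The part of depth in the order of the 3 in vivo males was not tested. With in vivo male 1 thinned to the median library total, edgeR called 46 genes, and all of them were among the 56.

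The level of these genes was also read in the other groups. Over the 43 falling genes the library medians ran from -0.24 to -0.01 under IVF males, from -0.35 to -0.12 under in vivo females, from -0.41 to 0.04 under IVF females and from -0.12 to 0.34 under nuclear transfer females. None of these 18 libraries reached the lowest in vivo male. Over the 13 rising genes the medians ran from 0.14 to 0.56, from -0.21 to 0.47, from -0.27 to 0.59 and from -1.13 to 0.37 in the same order. A single library, nuclear transfer female replicate 3 at -1.13, reached the in vivo males. It came from the contralateral horn, as did nuclear transfer male replicate 6 at 0.48 and in vivo male replicate 2 at -0.99. For all 56 genes the mean level under in vivo females lay nearer to nuclear transfer males than to in vivo males. The genes were chosen for the distance between in vivo and nuclear transfer males, which favours such a picture. It is a description without a test, and the share over all genes was not computed.

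**Figure D3:**
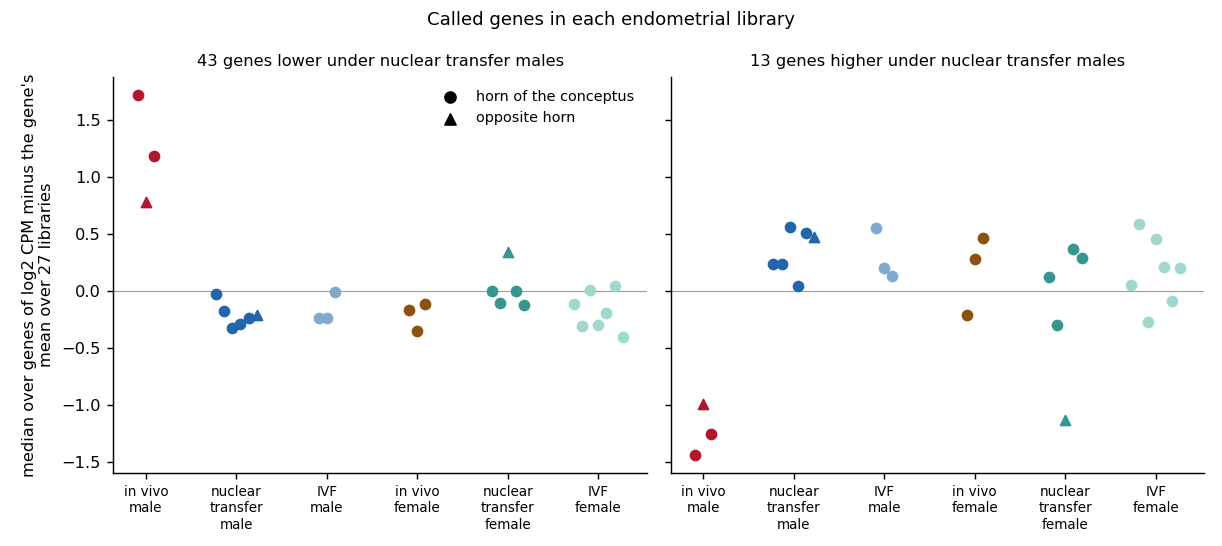
Each point is a library and shows the median, over the 43 genes that fell (left) or the 13 that rose (right), of log2 CPM minus the gene's mean over 27 libraries. Triangles are libraries from the horn opposite the conceptus, and the 3 in vivo male libraries are the highest on the left and, with 1 nuclear transfer female library, the lowest on the right.

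The labels carry a sample code of a letter and a digit, without saying what it stands for. All 3 in vivo male libraries have the digit 3, and the nuclear transfer male libraries have 1 or 2. The other 5 endometrial libraries with the digit 3 are all outside the in vivo males. Their medians ran from -0.29 to 0.04 over the falling genes and from -0.08 to 0.56 over the rising genes. These 5 belong to the IVF male, IVF female and nuclear transfer female groups, whose ranges above include them. Among the male libraries, IVF male replicate 1 is the only one outside the in vivo males with the digit 3. A fit of the male libraries can thus barely separate the digit from the in vivo group. A loss of calls there decides nothing about either. With the digit as a covariate, 0 genes passed by edgeR (1104 had an unadjusted p under 0.05), and the calls of the 4 genes above ended. ENSBTAG00000021752 was then at -0.59 on the log2 scale in place of -0.98, ENSBTAG00000014218 at 6.67 in place of 5.05, ENSBTAG00000021416 at -2.45 and ENSBTAG00000012120 at 2.05.

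IVF males were set beside nuclear transfer males. Between nuclear transfer and IVF males edgeR called 0 of 15296 genes (0%), DESeq2 0 and limma voom 0, with 140 genes (0.915%) at an unadjusted p under 0.05 by edgeR. Of the 43 falling and the 13 rising genes, 0 lay at an unadjusted p under 0.05 in that comparison, and their median log2 differences were -0.05 and 0.05. With only 0.915% of all genes under that p, nothing is read from this 0. Single genes differed by up to 1.16 on the log2 scale among the falls and up to 0.32 among the rises, in either direction. Both comparisons use the same nuclear transfer libraries. ENSBTAG00000021416 stood at 60.5, 62.9 and 101 CPM in the IVF male libraries, inside the nuclear transfer range, with a log2 difference of 0.10 (SE 0.27) between nuclear transfer and IVF males. ENSBTAG00000014218 stood at 373, 125 and 60.9 CPM in the IVF male libraries, on both sides of the nuclear transfer range (log2 difference -0.11, SE 0.51). ENSBTAG00000021752 stood there at 48.6, 37.4 and 36.9 CPM, also on both sides of its narrow nuclear transfer range (log2 difference -0.02, SE 0.12).

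IVF and in vivo males differed in 4 of 15296 genes (0.0262%, 3 lower and 1 higher, by edgeR). That comparison shares the in vivo male libraries, so its values are set beside the others without a count of agreement. ENSBTAG00000021416 was at -2.71 (SE 0.33) for IVF and at -2.60 (SE 0.26) for nuclear transfer against in vivo males. ENSBTAG00000021752 was at -0.95 (SE 0.14) and -0.98 (SE 0.11), ENSBTAG00000014218 at 5.16 (SE 0.74) and 5.05 (SE 0.71), and ENSBTAG00000012120 at 1.71 (SE 0.27) and 1.62 (SE 0.25). The last of these did not pass between IVF and in vivo males (adjusted p = 0.0833 by edgeR), and the other 3 did.

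The same contrast was then read under female conceptuses, in 5 nuclear transfer and 3 in vivo libraries from other cows. By edgeR, 0 of 15487 genes passed there (0%), while 726 (4.69%) had an unadjusted p under 0.05. DESeq2 called 4 and limma voom 0. Of the 56 genes, 53 were tested under females, and 10 of them had the same direction as under males, 7 of 40 falls and 3 of 13 rises. Over all 15112 genes tested in both sexes, 42% had the same direction. No test was made over the list. The share is 18.9% for the called genes, and 35.5% for the 2393 genes at an unadjusted p under 0.05 under males. Without nuclear transfer female replicate 3, the contralateral library, 18 of 53 had the same direction, against 45.1% of all genes. Without in vivo female replicate 3 it was 16 of 54, against 42.6%.

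Most differences of the called genes under females were nearer to 0 than those under males. The genes were chosen by their difference under males, which favours this, and sizes over all genes were not compared. The median under females was 0.23 on the log2 scale for the 40 falls, with a range from -0.56 to 1.24. For the 13 rises it was -0.21, with a range from -0.65 to 0.83. An unadjusted p under 0.05 by edgeR was reached by 4 of the 53, against 4.69% of all genes, and nothing is read from so few. All 4 had the opposite direction under females: 3 genes that fell under males and 1 that rose. ENSBTAG00000021416 stood at 79.4 ± 27.5 CPM (n = 3) under in vivo females and 128 ± 81.6 (n = 5) under nuclear transfer females, a log2 difference of 0.69 (SE 0.42, adjusted p = 1.00 by edgeR). ENSBTAG00000014218 stood at 98.9 ± 56.1 CPM (n = 3) and 102 ± 65.2 (n = 5), a log2 difference of 0.04 (SE 0.69, adjusted p = 1.00 by edgeR). Its lowest female value, 10.5 CPM, was in nuclear transfer female replicate 3, the contralateral library. ENSBTAG00000021752 stood at 43.3 ± 4.29 CPM (n = 3) and 46.4 ± 8.55 (n = 5), and ENSBTAG00000012120 at 294 ± 85.5 (n = 3) and 291 ± 165 (n = 5), in vivo females first. For both, the groups overlapped.

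**Figure D4:**
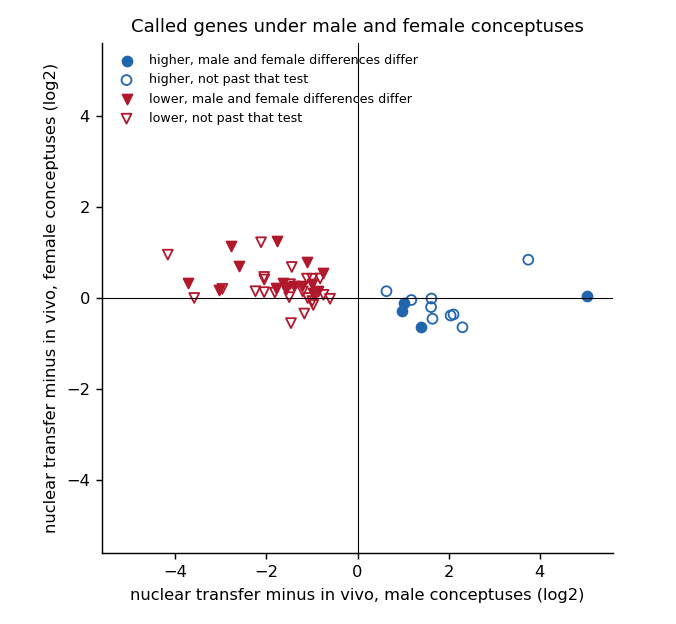
Each point is 1 of the 53 genes called under males and tested under females, placed by its log2 difference between nuclear transfer and in vivo under male (x) and female (y) conceptuses. Filled symbols passed the test that the 2 differences differ. Most points lie farther from 0 along x than along y, which the choice of the genes under males favours.

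Whether the nuclear transfer difference itself depended on conceptus sex was tested in 1 fit of all 27 libraries. Between the sexes, 39 of 15911 genes (0.245%) differed by edgeR, 25 with a lower and 14 with a higher difference under males, and 2460 (15.5%) lay at an unadjusted p under 0.05. Of the 56 genes, 19 passed this test, 15 falls and 4 rises. It uses the same male libraries as the comparison that chose the 56 and is no independent look at them. ENSBTAG00000021416 had a male minus female difference of -3.30 (SE 0.54, adjusted p = 0.0166 by edgeR) and ENSBTAG00000021752 of -1.08 (SE 0.19, adjusted p = 0.0258). ENSBTAG00000014218 had 5.00 (SE 1.05, adjusted p = 0.0401), and ENSBTAG00000012120 had 1.64 (SE 0.53, adjusted p = 0.155), short of the threshold.

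The count of 39 rose to 68 without nuclear transfer male 1 and dropped to 9, 7, 15 and 12 on leaving out numbers 3, 4, 5 and 6 of that group. It was 4 without in vivo male 1 and 573 without in vivo male 2. It became 12, 1 and 6 without in vivo females 1, 2 and 3, and 25, 10 and 25 without nuclear transfer females 1, 2 and 5. In the 20 fits with 1 library left out, the sex difference of ENSBTAG00000021416 was lost in 1, that of ENSBTAG00000021752 in 3 and that of ENSBTAG00000014218 in 11. The 1 was without in vivo female 2 (adjusted p = 0.0824), and the 3 were without in vivo male 1 (0.173), in vivo female 2 (0.0824) and in vivo female 3 (0.0853).

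The number of genes called between nuclear transfer and in vivo males depended on single libraries in the same way. Without in vivo male 1 it was 3 (1 higher, 2 lower), 2 of them among the 56, namely ENSBTAG00000021416 and ENSBTAG00000021752. Without in vivo male 2 it was 216, with 52 of the 56 among them, and without in vivo male 3 it was 21, with 15. Leaving out nuclear transfer males 2, 3, 4 and 5 gave 13, 5, 6 and 7 genes, all of them among the 56. Leaving out IVF males 1, 2 and 3 gave 29, 30 and 30, with 27 of the 56 in each. Over the 12 such fits, 21 of the 56 genes were called in at least 6, and 2, both falls, in every fit. The direction of calls was less one-sided by DESeq2, which called 514 genes (3.36%), 266 lower and 248 higher, with all 56 among them. Limma voom called 48 (0.314%; 38 lower, 10 higher), 37 of them among the 56.

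**Figure D5:**
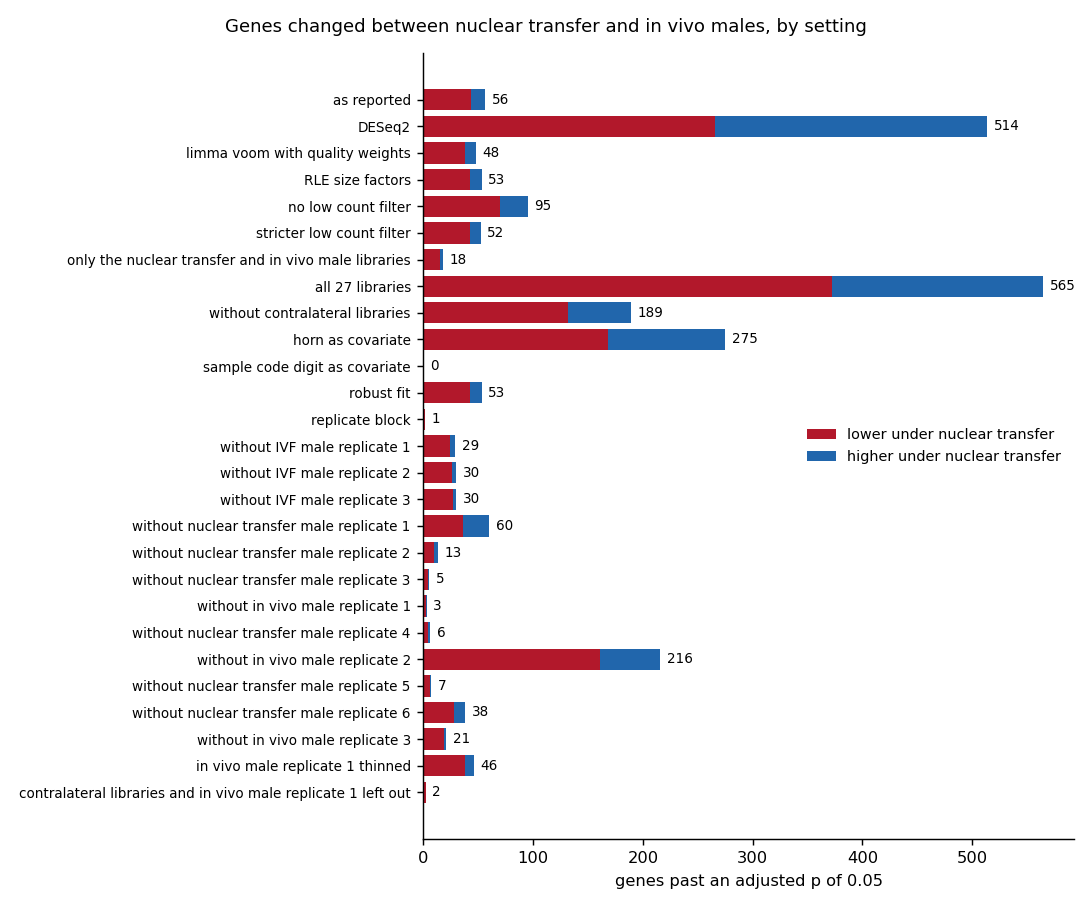
Bars give the number of genes past an adjusted p of 0.05 between nuclear transfer and in vivo males under each setting, split into genes lower and higher under nuclear transfer. The count was 56 as reported, 565 with all 27 libraries in the fit, 3 without in vivo male replicate 1 and 0 when the digit of the sample code was a covariate. The digit was barely separable from the in vivo group among the male libraries.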

How the data were processed

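Endometrial poly(A) RNA was sequenced from libraries whose second strand was made with dUTP, per the labels' protocols. The authors deposited raw estimated counts for each gene. Within 0.004, 85.2% of the nonzero values were whole. Per the submitters' processing notes, cutadapt, STAR, featureCounts and DESeq2 were among the tools, with the ARS-UCD1.2 build. For versions, annotation and strand setting the entry is: not given in the sources used here. Counts were rounded and tested with edgeR 4.0.16 in R 4.3.3 (TMM scaling, filterByExpr with minimum count 10 and minimum total 15, quasi-likelihood F test, two-sided, Benjamini-Hochberg adjustment over all genes tested, threshold 0.05) on the 12 male libraries as group means. Each SE is the log2 fold divided by the square root of F. CPM values were TMM-scaled over all 27 libraries, log2 CPM with a prior count of 2. Female libraries were fitted alone, and the sex dependence in all 27. The code was tested on simulated data. Alternatives were DESeq2 1.42.0, limma 3.58.1 voom with quality weights, other scaling, filters, libraries, covariates and a replicate block.

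The rule for naming, for identifiers without a symbol, takes the 2 rising and the 2 falling genes with the smallest p, and any symbol tested. Members, lists and tests were chosen with earlier results of these data known. Libraries are separate animals by their labels, so p-values measure the spread between animals; the smallest chi-square per degree of freedom between replicate libraries was 11.4, so none repeats another. The depths of the 9 libraries, 5.89 to 9.82 M counts, limit low genes most.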

Additional observations from a re-analysis of the deposited data

Results flagged for a closer look

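The nuclear transfer minus in vivo difference differed between male and female conceptuses for 3 of the 4 genes described. The male minus female difference was -3.30 on the log2 scale for ENSBTAG00000021416, -1.08 for ENSBTAG00000021752 and 5.00 for ENSBTAG00000014218, by a test of the difference itself in edgeR over all 27 libraries. All 3 calls ended with the sample code digit as covariate (adjusted p = 0.173, 0.111 and 0.103 in the same order). That of ENSBTAG00000014218 also ended in 11 of 20 fits with 1 library left out, that of ENSBTAG00000021752 in 3 and that of ENSBTAG00000021416 in 1. With the replicate number as a block, edgeR lost those of ENSBTAG00000014218 (adjusted p = 0.0835) and ENSBTAG00000021752 (0.0669). The 4 genes were chosen in the male comparison, whose libraries this test uses again, so it is no independent look at them.

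Of 24 sets of values checked for a library far from the others of its group, 2 stood out, where chance gives about 1 in 20. The groups of 3 libraries (in vivo males, in vivo females and IVF males) were too small for this check and were not among the 24. ENSBTAG00000021416 reached 269.8 CPM in nuclear transfer female replicate 4, against 76.4 to 125 CPM in the other 4 nuclear transfer females. Over the 43 genes that fell under nuclear transfer males, the library median was 0.34 in nuclear transfer female replicate 3, against -0.12 to 0.0022 in the other 4. The latter library came from the contralateral horn.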

How the results depend on the processing

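The differences of ENSBTAG00000021416, ENSBTAG00000021752, ENSBTAG00000014218 and ENSBTAG00000012120 kept their direction in all 13 alternatives and 12 fits with 1 library left out. All 4 calls ended when the digit of the sample code was a covariate (adjusted p = 0.518 to 0.691) and with the replicate number as a block (0.0806 to 0.118), and that of ENSBTAG00000014218 also by limma voom (0.0553). Among the male libraries the digit was barely separable from the in vivo group, so the loss with the digit decides nothing about either. TBL1X turned from -0.06 to 0.020 with the digit, 0.13 with the block and 0.0030 without nuclear transfer male 5.

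The 56 genes between nuclear transfer and in vivo males became 514 by DESeq2, 95 with no low count filter, 18 in the fit of the 9 libraries alone, 565 with all 27, 189 without contralateral libraries, 275 with horn as a covariate, 0 with the digit and 2 (0 of the 56) without contralateral libraries and in vivo male 1. Thinning and the last setting were chosen after seeing the data. With 1 library left out the count ran from 3 to 216. The 4 genes between IVF and in vivo males became 243 by DESeq2, 8 by voom, 65 with all 27 libraries, 52 without contralateral libraries, 47 with horn and 0 with the digit, and 0 to 28 with 1 library left out. The 39 genes of the sex difference became 316, 254, 128 and 0 by DESeq2, without contralateral libraries, with horn and with the digit, and 1 to 573 with 1 library left out. The sex difference of ENSBTAG00000014218 ended by voom (adjusted p = 0.143). The 10 genes of the same direction under females became 18 without contralateral libraries, and 9 to 18 with 1 library left out. The 0 calls between nuclear transfer and IVF males held in all 11 alternatives, and the separation of all 56 genes under both other scalings; leaving out libraries cannot end it. The cause of the changes was not tested.

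The labels number replicates within each group, but the cows differ. Same-numbered in vivo and nuclear transfer male libraries correlated at -0.18 to 0.16 in their deviations from the group means, and 1 of 3 in vivo libraries correlated best with its own number. With the replicate number as a block, 1 gene was called between nuclear transfer and in vivo males and 6 for the sex difference. The sex differences of ENSBTAG00000014218 (adjusted p = 0.0835) and ENSBTAG00000021752 (0.0669) ended with the block, and that of ENSBTAG00000021416 did not (0.0433). The fit of 9 libraries holds no IVF males and gives no value for those comparisons.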
